A study of Mus musculus with 72 samples.

Results

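Gastrocnemius of wild-type (WT) male mice was compared between 40 and 10 weeks of age by RNA-Seq, using all libraries that the labels give as WT gastrocnemius: 6 libraries at 10 weeks and 5 at 40 weeks, 11 of the 72 libraries of the series. The mice were *Bmal1*+/+ littermates from heterozygous crosses of the global *Bmal1*-KO line. They were kept in 12 hours of light and 12 hours of dark, and the muscle was taken at ZT1, an hour after lights on. In the same model stood 6 and 5 libraries of *Bmal1*-KO mice, which lack the gene in every tissue, and 7 and 5 of KO+AAV mice, KO mice given HA-tagged *Bmal1* in an AAV9 vector at postnatal day 5 under CK6, a promoter active in muscle. No label or method names a vector for the WT mice. Of the 10-week WT libraries, 3 (replicates 2 to 4) were sequenced at the facility named ICBR and 3 (replicates 5 to 7) at Novogene, while all 5 at 40 weeks were sequenced at Novogene, so the age comparison holds 1 site on one side and 2 on the other.

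The gastrocnemius is a large calf muscle that in mice consists mostly of fast-twitch fibers, together with fibroblasts, vessels, nerve, tendon, and some fat. Between 10 and 40 weeks a mouse passes from young adulthood, when muscle growth is ending, to mature adulthood. BMAL1, encoded by *Arntl*, pairs with CLOCK to drive transcription of the *Per* and *Cry* genes, whose proteins repress the pair and so close the loop of the circadian clock. Muscle also secretes peptides, called myokines, that act on other tissues.

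Reads counted on genes were 33645956 to 38601790 in the ICBR libraries of 10 weeks, 11318203 to 11655532 in the Novogene libraries of 10 weeks, and 9397642 to 13022994 at 40 weeks. Over the 16199 genes tested, log2 values of a 10-week Novogene library and a 40-week library correlated at 0.961 to 0.969, close to the 0.963 to 0.973 among 40-week libraries, whereas ICBR libraries correlated with Novogene libraries at 0.831 to 0.854. These correlations are across genes, which are not independent replicates. Site alone separated 3726 genes (23% of those tested) at an adjusted *P* under 0.05. The 8 fiber markers *Acta1*, *Ckm*, *Myh4*, *Myh1*, *Mylpf*, *Tnnt3*, *Atp2a1*, and *Pvalb* summed to 2052363 to 3424569 normalized counts in every library, as the label of the tissue has it. Some libraries stood apart. The 40-week replicates 2 and 4 held transcripts of hepatocytes, with *Alb* (albumin) at 282 and 357 against at most 11.2 in the other 9 libraries, and the 40-week replicates 1 and 5 were low in short genes and in adipocyte genes. The fits over 34 libraries were therefore repeated without either pair, and the labels do not say whether libraries of a group came from separate mice beyond numbering them as replicates.

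Few genes were called between the ages. At a Benjamini-Hochberg adjusted *P* under 0.05 in the model of 34 libraries with 6 groups and site, 24 of 16199 genes were called (0.148%), 18 higher at 40 weeks (0.111%) and 6 lower (0.037%). The study calls genes at a *P* under 0.01 and does not say whether it is adjusted. At an unadjusted *P* under 0.01 here, 368 genes differed (2.27%), 197 higher (1.22%) and 171 lower (1.06%). The study used DESeq2 and another count results from it, so the 368 genes are not its set. At a *P* under 0.05, used below to describe gene lists, 1209 genes differed (7.46%). The median change of all genes was 0.005 on the log2 scale. Fitted alone, the 8 Novogene libraries gave 28 called genes of 16177 (0.173%), 14 in each direction (0.0865%). All 24 genes moved the same way there with an unadjusted *P* under 0.05, which 8.88% of all genes had, but only 10 of them passed the adjusted threshold in both fits. These 8 libraries are part of the larger model and hold all the 40-week WT libraries, so the shared direction is not an independent check. The scatter of both fits shows the called genes along the diagonal. In 18 of the 24 genes the 11 libraries did not overlap between the ages, which held for 2.64% of all genes tested, and in 23 the 8 Novogene libraries did not (6.36% of all genes). The 24 genes were called from these same values, so their lack of overlap adds no separate support. Leaving out each WT library in turn left 7 to 29 called genes, the fewest without 10-week replicate 7 or 40-week replicate 3, and leaving out 40-week replicates 2 and 4 together left 9. Only *Dkk3*, *Ighg2c*, *Actc1*, *Mib1*, *C130080G10Rik*, and *Tmem132b* were called in each of the 11 fits that left out 1 library.

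**Figure D1:**
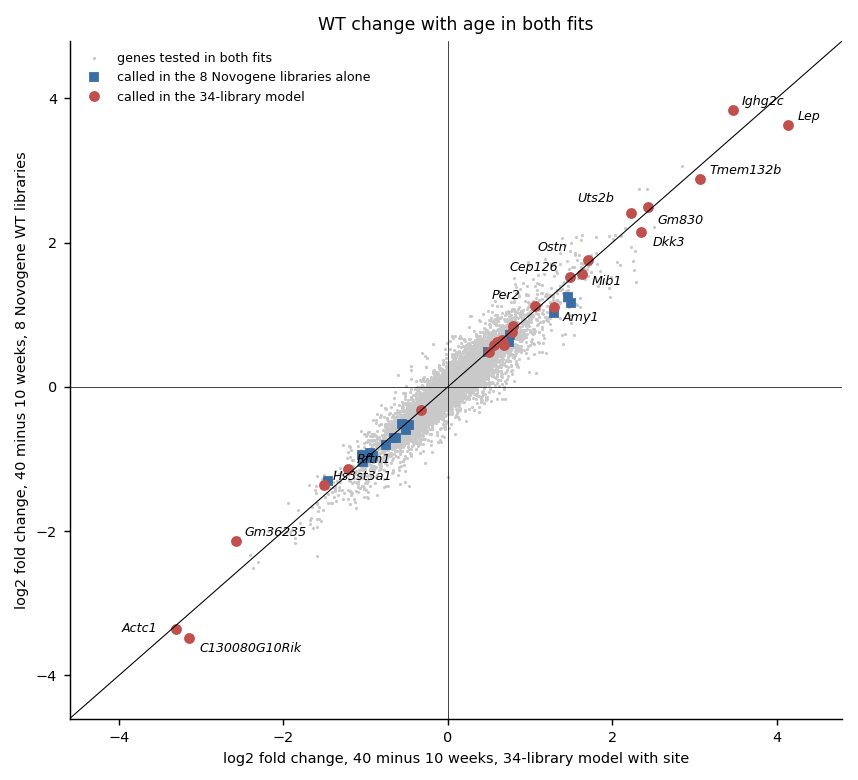
Log2 fold change from 10 to 40 weeks in the model of 34 libraries (x axis) against that in the 8 Novogene WT libraries alone (y axis), 1 point per gene tested in both. Both fits share the Novogene libraries, and the 24 genes called in the larger model (red circles) all lie on the same side of 0 in both, while 18 genes were called only in the smaller (blue squares). The diagonal marks equal values.

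*Dkk3* and *Actc1* were the clearest changes, one in each direction. *Dkk3* (chr7:112116017-112159057), which encodes a secreted glycoprotein of the Dickkopf family, ranged from 76.2 to 125 normalized counts (median 88.5) at 10 weeks and was 483, 392, 439, 403, and 428 in 40-week replicates 1 to 5. Every 40-week library exceeded every 10-week library of either site. The fitted difference was 2.36 ± 0.28 (SE) on the log2 scale of normalized count + 1, a 5.12-fold increase (adjusted *P* = 2.60e-05). It was called in 24 of the 25 settings run, the exception being the fit with the replicate number as a block (2.22, adjusted *P* = 0.150). *Dkk3* rose in KO and KO+AAV muscle as well, by 1.67 and 1.73 on the log2 scale, and those changes did not differ detectably from that in WT (adjusted *P* = 0.431 and 0.534 for the differences).

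*Actc1* (chr2:114047282-114053548), cardiac α-actin, is the thin-filament actin of the heart and of developing muscle. Its normalized counts at 10 weeks ran from 1783 to 12754 (median 4209), with replicate 6 far above the others, and at 40 weeks they were 440, 434, 717, 546, and 328. The 40-week libraries, all of Novogene, lay below the 10-week libraries of each site. The difference was −3.31 ± 0.51, 9.94-fold lower at 40 weeks (adjusted *P* = 0.00123), and it remained called when either pair of 40-week libraries was left out. The decrease was −2.23 in KO and −3.71 in KO+AAV muscle. *Actc1* was the only called gene of the sarcomere: no gene of the fast fiber list (13 tested) or the slow fiber list (10 tested) had a *P* under 0.05.

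*C130080G10Rik* (chr2:114054335-114064868), annotated as an antisense noncoding RNA, starts 786 bases from the *Actc1* start on the opposite strand and changed with it. It ranged from 3.28 to 37.8 normalized counts (median 12.6) at 10 weeks, again highest in replicate 6 and lowest in replicate 4, as *Actc1* was. Only 2 reads remained at 40 weeks, 1 each in replicates 1 and 2, against 38 reads in the 3 Novogene libraries of 10 weeks. The ratio of these read rates, 10 over 40 weeks, was 30.4 (95% exact binomial interval 7.86 to 260.3, which covers counting error only), and the fitted log2 difference was −3.15 ± 0.53 (adjusted *P* = 0.00384). Of its exons, 38.7% are shared with *A530058N18Rik* on the same strand, so its reads may belong in part to that gene. Because both genes start in the same short stretch of chromosome 2, the 250 bases upstream of each RefSeq start on GRCm38.p6 are shown, 5′ to 3′ on the strand of the gene, *Actc1* from chr2:114052876-114053125 (minus strand) with its match to the CArG box in capitals and *C130080G10Rik* from chr2:114054146-114054395 (plus strand) with its match to the E-box core CANNTG in capitals.
*Actc1*: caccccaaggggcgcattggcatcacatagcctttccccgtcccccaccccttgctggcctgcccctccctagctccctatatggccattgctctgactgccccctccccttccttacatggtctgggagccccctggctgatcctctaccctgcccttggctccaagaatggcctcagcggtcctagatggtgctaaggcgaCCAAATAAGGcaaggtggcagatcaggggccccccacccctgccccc
*C130080G10Rik*: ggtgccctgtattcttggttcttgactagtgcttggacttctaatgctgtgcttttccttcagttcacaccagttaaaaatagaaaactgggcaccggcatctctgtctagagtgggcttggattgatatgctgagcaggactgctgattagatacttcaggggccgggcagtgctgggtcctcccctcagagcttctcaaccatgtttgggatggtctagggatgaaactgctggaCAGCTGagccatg
A CArG box, the site read by serum response factor, was found on either strand in 1.47% of 32851 such windows, and an E-box core in 66.2%. The *Actc1* window holds no E-box core and the *C130080G10Rik* window no CArG box. The RefSeq starts used here differ from the outer ends of the GENCODE genes above, and such matches describe the letters and show no binding.

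Secreted peptides among the genes that rose were those of *Ostn*, *Uts2b*, and *Lep*. *Ostn* (chr16:27307489-27351212) encodes osteocrin, the myokine also called musclin, which binds the clearance receptor of natriuretic peptides. It ranged from 170 to 335 normalized counts (median 285) at 10 weeks and was 1287, 511, 1616, 1454, and 550 at 40 weeks. All 5 libraries lay above the 10-week range, and replicates 2 and 5 lay well below the other three. The difference was 1.70 ± 0.35 (adjusted *P* = 0.0354), and *Ostn* rose by 1.88 in KO and 2.25 in KO+AAV muscle. It was called in 3 of 11 fits that left out 1 library, and 12.9% of its exons overlap *Gm32312* on the other strand.

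The neighbor of *Ostn* on chromosome 16, *Uts2b* (chr16:27353322-27370239), is transcribed toward it from the other strand and ends 2109 bases away. It encodes the precursor of urotensin II-related peptide, a vasoactive peptide. Its counts were 0 to 0.449 in the 3 ICBR libraries and 7.57 to 9.38 in the 3 Novogene libraries of 10 weeks, and 72.6, 21.3, 69, 93.8, and 31.3 at 40 weeks. All 40-week libraries lay above those of 10 weeks. The log2 difference was 2.23 ± 0.41 with the site term (adjusted *P* = 0.0118) and 2.41 in the Novogene libraries alone (adjusted *P* = 0.0642). As with *Ostn*, replicates 2 and 5 were lowest. These were also the libraries with the most *Myh7*, the slow myosin heavy chain, at 5154 and 7206 normalized counts against 32.6, 54.9, and 1267 in replicates 1, 3, and 4. The part of slow fiber content in the spread of *Ostn* and *Uts2b* was not tested.

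*Lep* (chr6:29060220-29073877), the adipocyte hormone leptin, had the largest fitted change. Its normalized counts were 3.28 to 50.3 (median 11.2) at 10 weeks and 53.4, 352, 278, 421, and 37.5 at 40 weeks. Replicates 2, 3, and 4 lay far above the 10-week range and replicates 1 and 5 within or just above it. The difference was 4.14 ± 0.82 (adjusted *P* = 0.0237). Without 40-week replicates 1 and 5 it was 5.31 (adjusted *P* = 0.00130), and without replicates 2 and 4 it was 3.26 and no longer called (adjusted *P* = 0.353). Other adipocyte genes, singled out after their values were seen, followed the same libraries. *Adipoq* (adiponectin) was 43.0, 289, 264, 418, and 51.6 and *Cidec*, a lipid droplet protein, 62.3, 291, 257, 341, and 39.1 in the 40-week replicates in order, with 10-week ranges of 28.6 to 161 and 33.3 to 154. Of the 18 adipocyte genes tested, 1 was called and 3 were higher at a *P* under 0.05, against 3.85% of all genes. The list's median change was 0.34, and 0.75 without 40-week replicates 1 and 5, where 6 were higher. Without replicates 2 and 4, 1 was. The 5 adipocyte markers, of which *Lep* is one, summed to 1975 to 2720 normalized counts at 10 weeks and 1628 to 3756 at 40 weeks, and their part in the *Lep* change was not tested. In bulk tissue more fat cells and more RNA per fat cell cannot be told apart, and the same holds for every cell type below.

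**Figure D2:**
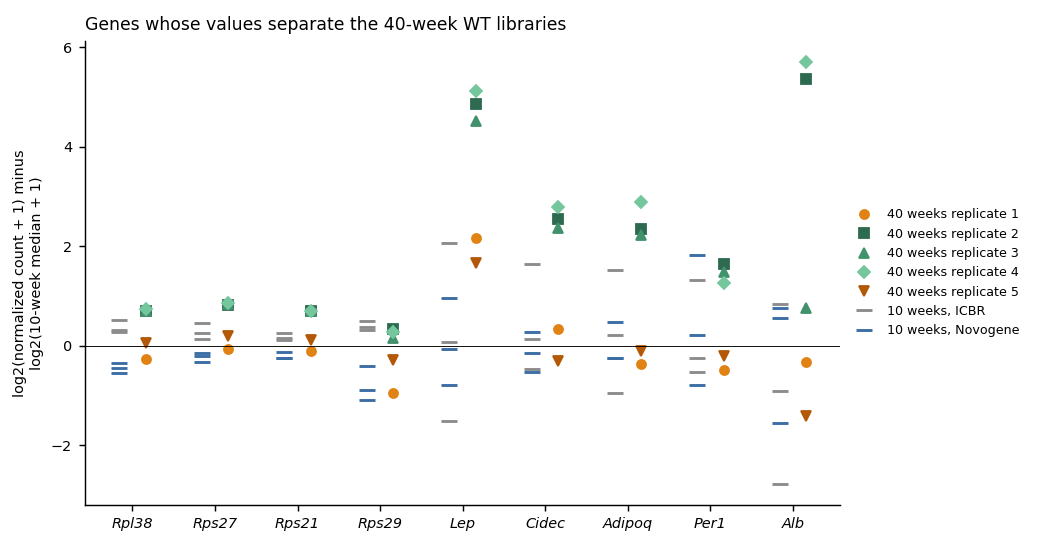
Log2 normalized count of 9 genes in each WT library, relative to the 10-week median of the gene (y axis, 0 at the median), with 10-week libraries as short dashes (gray, ICBR; blue, Novogene) and 40-week replicates as symbols. For *Lep*, *Cidec*, and *Adipoq*, 40-week replicates 2, 3, and 4 (green) lie above 2 on this scale, and replicates 1 and 5 (orange) lie lower, as they do for the ribosomal protein genes and *Per1*. *Alb* is high in replicates 2 and 4 only.

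*Igf1*, the growth factor that mediates growth hormone action in muscle, lay just outside the threshold and was singled out for that reason. It was 422 to 1127 (median 548) at 10 weeks and 150, 213, 204, 185, and 277 at 40 weeks, below the 10-week libraries of each site. Its difference was −1.45 ± 0.33 (adjusted *P* = 0.0593) in the larger model and −1.31 in the 8 Novogene libraries, where it was called (adjusted *P* = 0.0123), as it was by edgeR (0.0457) and DESeq2 (0.00382) on the recovered reads. KO and KO+AAV muscle had decreases of −1.25 and −1.19. Among 19 genes of the growth hormone and IGF axis, 5 were lower at a *P* under 0.05 (3.62% of all genes were) and none higher, with a median of 0.00 (2 lower without 40-week replicates 1 and 5, 3 without 2 and 4). They included *Irs1*, an insulin and IGF receptor substrate (−0.67, adjusted *P* = 0.439, with 30.9% of its exons overlapping *Gm9747* on the other strand), and *Igfbp7*, an IGF-binding protein (−0.50, adjusted *P* = 0.569). The most abundant members, *Igfbp5* and *Stat5b*, differed by 0.08 and 0.05. Around the threshold itself, *Hs3st3a1*, *Fmc1*, and *Lonp2* lay just inside, with adjusted *P* values of 0.0465, 0.0465, and 0.0482, and *Gm32312*, *Msrb1*, *Pyurf*, and *Tdrkh* just outside, with 0.0525 for the first and 0.0546 for the others.

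*Arntl* showed no detectable change with age. It was 402 to 634 normalized counts (median 527) at 10 weeks and 608, 589, 573, 571, and 480 at 40 weeks, and the ages overlapped. Its difference was 0.23 ± 0.21 in the model (adjusted *P* = 0.861) and 0.24 between the Novogene libraries of both ages (exact permutation test, two-sided, *P* = 0.143, where the 56 arrangements allow no *P* below 0.0357). Of 19 core clock and clock output genes tested, *Per2* alone was called.

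*Per2* (chr1:91415982-91459324), a repressor of the CLOCK:BMAL1 pair, was 68.4 to 132 (median 94.8) at 10 weeks and 216, 239, 196, 152, and 163 at 40 weeks. The 40-week libraries all lay above those of 10 weeks. It rose by 1.05 ± 0.22 on the log2 scale, 2.08-fold (adjusted *P* = 0.0354), and was called in 4 of the 11 fits that left out 1 library and not in the Novogene libraries alone (1.12, adjusted *P* = 0.0845). In KO and KO+AAV muscle the changes were 0.57 and 0.07, neither called. The other period genes and the cryptochromes were not called: *Cry2* differed by 0.70 (adjusted *P* = 0.695), *Per3* by 0.66 (adjusted *P* = 0.727), *Per1* by 0.29 (adjusted *P* = 0.947), and *Cry1* by 0.08 (adjusted *P* = 0.927). *Per1* varied among libraries of 1 age, from 204 to 1260 at 10 weeks and from 251 to 1112 at 40 weeks, with 40-week replicates 1 and 5 low. The activators *Clock* (−0.12) and *Npas2* (−0.47, adjusted *P* = 0.685), the nuclear receptors *Nr1d1* (−0.18), *Nr1d2* (0.10), and *Rora* (0.10), the output factors *Dbp* (0.18), *Tef* (0.19), *Hlf* (0.43), and *Nfil3* (0.16), and *Bhlhe40* (0.18), *Bhlhe41* (−0.25), and *Ciart* (0.08) had no *P* under 0.05. Their directions are not firm, since those of *Ciart*, *Cry1*, *Dbp*, *Nfil3*, *Nr1d1*, *Nr1d2*, *Per1*, and *Rora* turned under at least 1 other setting. *Rorb* was below the filter on low values. The median of the list was 0.18. In the Novogene libraries alone 5 of the 19 were higher at a *P* under 0.05, against 4.57% of all genes there. In the larger model only 1 was higher, against 3.85% of all genes. Without 40-week replicates 1 and 5, 1 was higher and 1 lower. All samples were taken at ZT1, so a shift of phase and a change of level cannot be told apart.

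Of the genes of cytosolic ribosomal proteins, *Rpl38*, *Rps27*, and *Rps21* rose. *Rpl38* (chr11:114668524-114672331) was 580 to 678 in the ICBR and 324 to 374 in the Novogene libraries of 10 weeks, and 397, 773, 773, 794, and 497 at 40 weeks. The ages overlap over both sites and not within Novogene. The differences were 0.79 ± 0.15 for *Rpl38* (adjusted *P* = 0.0120), 0.78 ± 0.16 for *Rps27* (0.0354), and 0.60 ± 0.13 for *Rps21* (0.0354), 1.52- to 1.73-fold. In the Novogene libraries alone the differences were 0.84, 0.76, and 0.62, and none of the 3 was called (adjusted *P* = 0.189, 0.218, and 0.279). All 3 lay above the 10-week Novogene libraries, yet within the 10-week range over both sites, in 40-week replicates 1 and 5. *Rps27* was 858 and 1025 in those libraries and 1597 to 1639 in the other three, against 721 to 1241 at 10 weeks. *Rps21* was 758 and 886 there and 1317 to 1329 in the other three, against 688 to 971. Without replicates 1 and 5 the differences were 1.11, 1.10, and 0.88 with adjusted *P* values of 5.59e-06, 0.000177, and 2.49e-05, and without replicates 2 and 4 none was called. In the list, 79 genes were tested, of which 22 were higher at a *P* under 0.05 and none lower, against 3.85% and 3.62% of all genes. A positive difference was found in 70, against 8228 of all 16199 genes, and the median was 0.12. The count was 17 higher and 1 lower in the Novogene libraries alone, against 4.57% and 4.3% of all genes. It was 33 higher without 40-week replicates 1 and 5, and 6 higher without replicates 2 and 4. *Rps29* (0.72, adjusted *P* = 0.123) and *Rpl37a* (0.46, adjusted *P* = 0.115) were singled out after their values were seen. Genes of this family have near-identical pseudogenes, so their counts are uncertain in level.

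Ribosomal protein mRNAs are known to begin with a run of pyrimidines through which growth signals control their translation. The 30 bases around the RefSeq start (GRCm38.p6) of the called members are shown with the run of C and T that spans the start in capitals, *Rpl38* from chr11:114668565-114668594 (plus strand), *Rps27* from chr3:90213634-90213663 (minus strand), and *Rps21* from chr2:180257364-180257393 (plus strand).
*Rpl38*: agcggaagcctcgTTCTTTCCCCgttctct
*Rps27*: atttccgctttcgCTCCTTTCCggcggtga
*Rps21*: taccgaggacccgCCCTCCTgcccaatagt
The runs are 10, 9, and 7 bases long. Each begins upstream of the RefSeq start, so its first bases lie outside the mRNA that RefSeq annotates. RefSeq also lists a second start of *Rps21*, downstream of the one shown, and the run there is 1 base. Among 32851 starts the median run was 2, and 16.1% had a run of 5 or more. The 3 genes are also short, with 542, 1043, and 810 exon bases. Over all genes with a mean above 200, 40-week replicates 1 and 5 lay below replicates 2 to 4 by a median of 0.087 on the log2 scale for genes of up to 700 exon bases and 0.114 for those of 700 to 1200, and above them by 0.016 for genes over 4000. The part of gene length in the ribosomal protein differences was not tested. Of genes of mitochondrial ribosomal proteins 77 were tested, 1 was higher and 7 lower at a *P* under 0.05, and the median was −0.09. A negative difference was found in 60 of them. In the Novogene libraries alone 3 were lower and none higher.

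*Ighg2c* (chr12:113285325-113288932), the constant region of the IgG2c heavy chain made by plasma cells, rose the most among genes that stayed called in every fit with 1 library left out. It was 1.51 to 21.4 (median 17.7) at 10 weeks and 145, 164, 133, 247, and 71.9 at 40 weeks, with no overlap. The difference was 3.47 ± 0.53, 11.1-fold (adjusted *P* = 0.00123). In KO muscle it was 0.27 and in KO+AAV muscle 3.31, and the changes of WT and KO differed (adjusted *P* = 0.0286). Reads of the related IgG2 genes can be counted on it. Of the 15 B and plasma cell genes listed, only 3 passed the filter on low values. The 6 fixed markers of these cells, *Jchain*, *Cd79a*, *Cd79b*, *Ighm*, *Igkc*, and *Mzb1*, summed to 851 to 2068 at 10 weeks and 1338 to 2329 at 40 weeks.

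*Mib1* encodes an E3 ubiquitin ligase that ubiquitinates Notch ligands. It was 957 to 2043 (median 1827) at 10 weeks, with replicate 4 lowest, and 8269, 5204, 5752, 6543, and 3176 at 40 weeks. All 40-week libraries lay above the 10-week range. The difference was 1.64 ± 0.25, 3.11-fold (adjusted *P* = 0.00123), and it was the most abundant of the genes that rose. In KO muscle its change was −0.09, which differed from that in WT (adjusted *P* = 0.0188), and in KO+AAV muscle 0.82. A pair of other genes of protein modification by ubiquitin-like proteins were called. *Rhobtb1* (chr10:69151434-69291791), an atypical small GTPase that recruits substrates to CUL3, was 363 to 641 at 10 weeks and 697, 667, 697, 690, and 728 at 40 weeks (0.65 ± 0.14, adjusted *P* = 0.0465). *Ube2f* (chr1:91250304-91290337), a conjugating enzyme for NEDD8, was 792 to 932 at 10 weeks and 721, 723, 687, 683, and 639 at 40 weeks (−0.33 ± 0.07, adjusted *P* = 0.0465). Neither overlapped between the ages, and the 1.25-fold decrease of *Ube2f* was the smallest called change.

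Among genes of membranes and the cell surface, *Tmem132b* (chr5:125531774-125792583), a single-pass membrane protein, was 10.6 to 39.3 (median 16.1) at 10 weeks and 173, 153, 145, 139, and 81.3 at 40 weeks. Its difference was 3.07 ± 0.53, 8.38-fold (adjusted *P* = 0.00495), and it was called in the Novogene libraries alone (2.88, adjusted *P* = 0.00282). *Rftn1* (chr17:49992257-50190674), raftlin, a protein of lipid rafts, was 223 to 409 (median 301) at 10 weeks and lower at 40 weeks, at 139, 145, 115, 134, and 181. The difference was −1.22 ± 0.25 (adjusted *P* = 0.0348), beside −1.52 in KO and −1.28 in KO+AAV muscle. *Hs3st3a1* (chr11:64435332-64522841), a heparan sulfate sulfotransferase, was near the filter at 9.08 to 21.4 and then 5.93, 6.27, 8.85, 4.69, and 3.13 (−1.51 ± 0.33, adjusted *P* = 0.0465). It was called in 1 of 11 fits that left out 1 library, and 32.9% of its exons overlap *F930015N05Rik* on the other strand.

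Called metabolic genes were *Amy1*, *Lonp2*, and *Fmc1*. *Amy1* (chr3:113555710-113606699), an amylase that splits starch and glycogen chains, was 317 to 548 (median 466) at 10 weeks and 764, 1089, 1134, 970, and 952 at 40 weeks (1.29 ± 0.27, adjusted *P* = 0.0354). It also rose in KO (1.32) and KO+AAV (1.70) muscle. Its exons overlap *Rnpc3* on the same strand over 32.7%, and other amylase genes are near-identical, so the assignment of its reads is uncertain. *Lonp2* (chr8:86624043-86723873), the Lon protease of peroxisomes, was 879 to 1091 and then 1355, 1281, 1251, 1332, and 1294 (0.51 ± 0.11, adjusted *P* = 0.0482). It did not overlap between the ages, yet its adjusted *P* exceeded 0.05 in each fit that left out 1 library (0.0725 to 0.143). *Fmc1* (chr6:38533502-38539449), an assembly factor of mitochondrial ATP synthase, was 238 to 363 and then 271, 397, 396, 460, and 389 (0.56 ± 0.12, adjusted *P* = 0.0465), and it is the only called gene whose ages overlapped within Novogene.

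The remaining called genes have less known roles in muscle. *Cep126* (chr9:8076461-8134294), a centrosome protein, was 4.54 to 15.7 and then 23.7, 17.5, 35.4, 26.6, and 21.9 (1.49 ± 0.32, adjusted *P* = 0.0431). *Ttc23* (chr7:67647410-67762912), a protein of the base of cilia, was 168 to 197 at ICBR, 794 to 1011 in the Novogene libraries of 10 weeks, and 1693, 1267, 1414, 1404, and 1158 at 40 weeks (0.69 ± 0.14, adjusted *P* = 0.0354). The noncoding *Gm830* (chr4:95464724-95487394) was 4.02 to 9.08 and then 40.0, 27.6, 54.9, 46.9, and 20.3 (2.44 ± 0.45, adjusted *P* = 0.0120). The noncoding *Gm36235* (chr12:15980647-16015545) was 0.936 to 2.25 at ICBR, 9.38 to 16.7 in the Novogene libraries of 10 weeks, and 1.48, 3.76, 5.31, 3.13, and 0 at 40 weeks, so the 40-week libraries overlapped the 10-week range over both sites and lay below that of Novogene (−2.58 ± 0.50, adjusted *P* = 0.0212). Its call rests on the site term, without which the difference was −0.93 (adjusted *P* = 0.683). Values of all called genes by library are in the panel plot.

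**Figure D3:**
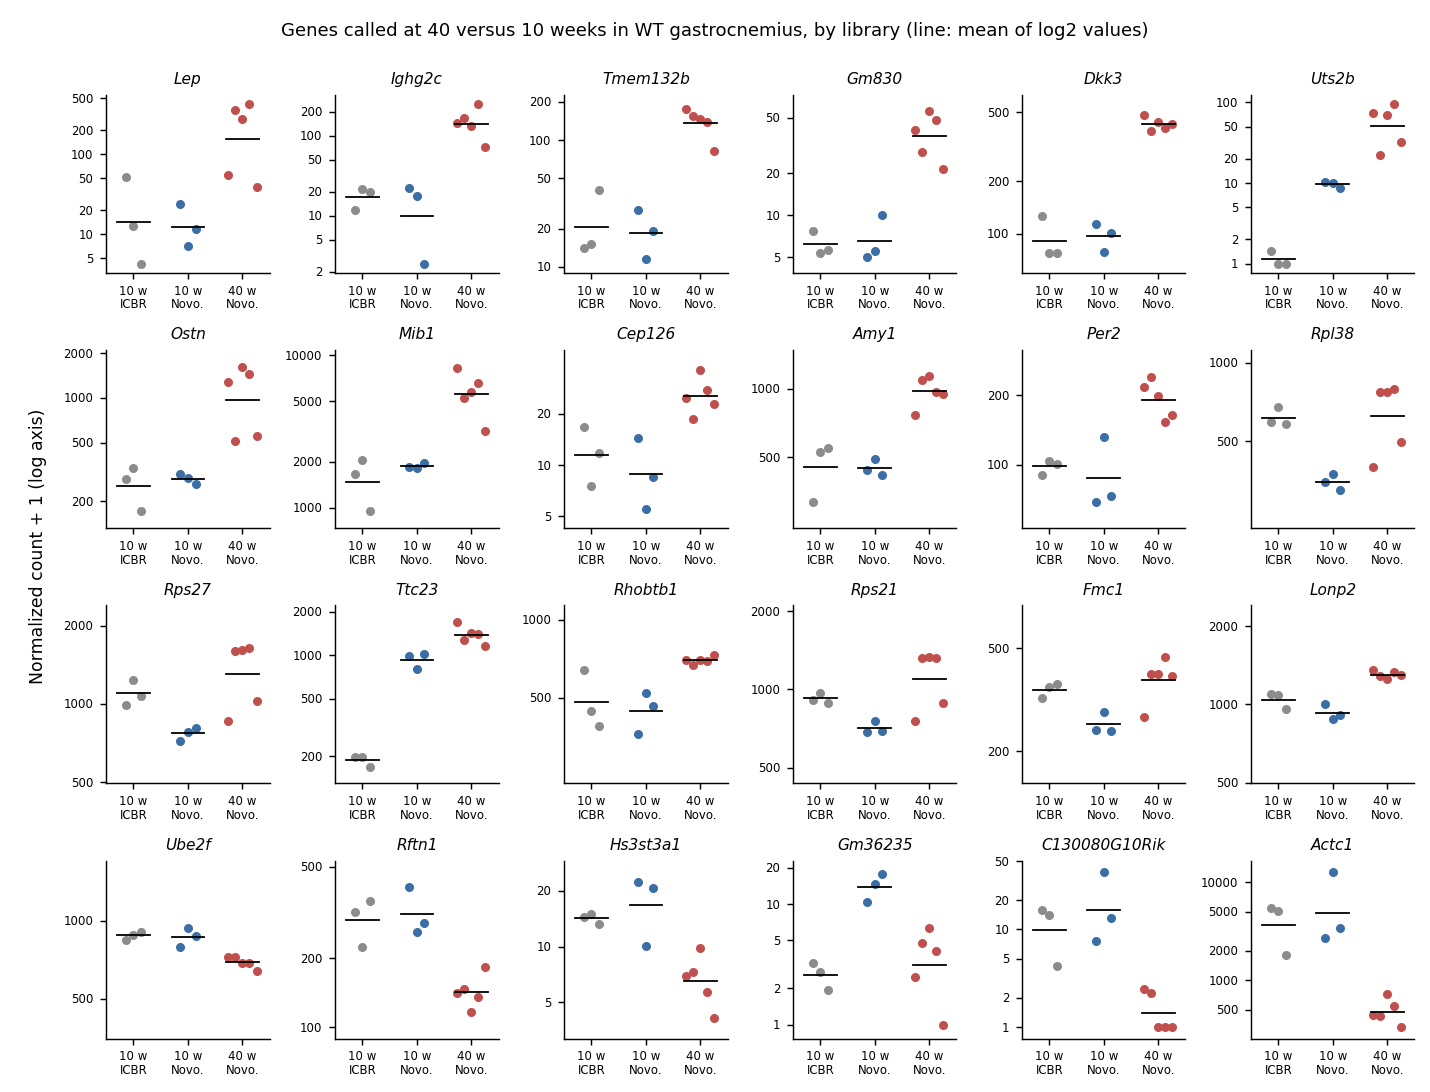
Normalized count + 1 (log axis, a scale of its own for each gene) of the 24 called genes in each WT library, with 10-week libraries of ICBR in gray, 10-week libraries of Novogene in blue, and 40-week libraries, all of Novogene, in red. Lines mark means of log2 values. For *Dkk3*, *Mib1*, *Tmem132b*, *Ighg2c*, and *Actc1*, the 40-week libraries lie apart from the 10-week libraries of each site. For *Rpl38*, *Rps27*, and *Rps21*, they lie apart from the 10-week libraries of Novogene and overlap with those of ICBR.

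Fitting the 8 Novogene libraries alone called 18 genes that the larger model did not, 6 higher and 12 lower at 40 weeks. These genes are named because they were called in that fit. Of the 18, 16 had a *P* under 0.05 in the same direction in the larger model, which shares the libraries. Genes higher at 40 weeks were *Aldh1a1*, a retinaldehyde dehydrogenase (1425 to 1784 in the 10-week Novogene libraries and 3205, 3724, 2901, 3317, and 2667 at 40 weeks, difference 1.02, adjusted *P* = 0.00282), *Asb15*, a muscle substrate adaptor for ubiquitination (0.71), *Shc2*, an adaptor of receptor tyrosine kinases (1.25), *Gpx3*, the secreted glutathione peroxidase (0.62), *Ces1d*, a carboxylesterase with near-identical paralogs (1.16), and *Pdzrn3*, an E3 ligase (0.49). Genes lower at 40 weeks included *Igf1*, both chains of the main type IV collagen of basement membranes, *Col4a1* (−0.81, adjusted *P* = 0.0158) and *Col4a2* (−0.70, 0.0171), the water channel *Aqp4* (−1.05), the muscle lysine methyltransferase *Mettl21c* (−0.95), the acyl-CoA dehydratase *Hacd1* (−0.92), and the cell cycle gene *Ccnd3* (−0.71). *Col4a1* was 2326 to 3098 in the Novogene libraries of 10 weeks and 1446, 1778, 1428, 1364, and 1716 at 40 weeks. *Nrep* (−0.96), *Foxo6os* (−0.99), *Mlf1* (−0.59), *Afap1l1* (−0.53), and *Exoc7* (−0.52) completed the set.

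Across 38 gene lists, 4 held a called gene and 34 held none, and in 13 no member had a *P* under 0.05. At this *P*, 3.85% of all genes were higher and 3.62% lower in the larger model, the shares to set beside the counts below. The lists were chosen with earlier results of these data known, so a count above these shares is not a test of a list. In the 8 Novogene libraries alone, 4.57% of all genes were higher and 4.3% lower. The counts of many lists there differed from those of the larger model and are given beside some of them only. A list without such a count below need not be unchanged there. Tendon genes, for example, had 6 lower, endothelial genes 7 lower, and heat shock genes 2 higher and 1 lower in the Novogene libraries alone. The tendon list had the lowest median of all. Its 7 genes had negative differences with a median of −1.68, and 5 were lower at a *P* under 0.05. *Cilp2*, a cartilage and tendon matrix protein, was 66.6 to 445 (median 184) at 10 weeks and 53.4, 42.6, 8.85, 31.3, and 103 at 40 weeks (−2.37, adjusted *P* = 0.229), and *Tnmd*, tenomodulin, 66.6 to 264 and then 65.2, 46.4, 21.2, 34.4, and 78.2 (−1.59, adjusted *P* = 0.414). The ages overlapped in both. *Scx*, the tendon transcription factor, differed by −0.14. Of 17 fibrillar and associated collagens, 5 were lower at a *P* under 0.05 (10 in the Novogene libraries alone, 2 without 40-week replicates 2 and 4), and the median was −0.42. *Col1a1* was 1426 to 5804 and then 750, 649, 644, 569, and 1250 without overlap (−1.67, adjusted *P* = 0.394), and *Col1a2* differed by −1.46 (adjusted *P* = 0.526). Also singled out were *Col11a1* (−1.92), *Kera* (−2.31), *Fmod* (−1.41), and *Thbs4* (−0.90). None of these genes was called. The 6 tendon markers summed to 1229 to 3718 at 10 weeks, highest in replicate 5, and 873 to 2019 at 40 weeks, and the 5 fibro-adipogenic markers to 10928 to 28171, again highest in replicate 5, and 16144 to 21277. Without 10-week replicate 5 the medians were −1.32 for tendon genes and −0.20 for collagens, with 4 and 2 members lower at a *P* under 0.05. How much tendon was taken with the muscle was not tested.

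Basement membrane genes (17 tested) held 3 with a lower value at a *P* under 0.05 (5 at Novogene alone), among them *Sparc*, a collagen-binding matricellular protein, which was 3243 to 6586 at 10 weeks and 1757, 2444, 2333, 2418, and 1999 at 40 weeks (−0.91, adjusted *P* = 0.446). *Hspg2*, perlecan, differed by −0.20. Matrix proteoglycans and glycoproteins (21 tested) had 4 lower (7 at Novogene alone, 1 without 40-week replicates 2 and 4) and a median of −0.27, with *Dcn*, decorin, at 0.21. Enzymes of collagen processing (19 tested) had no member with a *P* under 0.05 (4 lower at Novogene alone), and their most abundant members *Serpinh1* and *P4ha1* differed by −0.53 and −0.19.

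Of 14 endothelial genes 5 were lower at a *P* under 0.05, with a median of −0.26. *Plvap*, a protein of endothelial diaphragms, was 216 to 365 and then 165, 193, 184, 213, and 166 without overlap (−0.58, adjusted *P* = 0.174), *Aplnr*, the apelin receptor, differed by −1.33 (adjusted *P* = 0.543), *Emcn* by −0.60 (adjusted *P* = 0.449), *Cdh5* by −0.36 (adjusted *P* = 0.568), and *Pecam1* by −0.20 (adjusted *P* = 0.792). The 5 endothelial markers summed to 3076 to 5137 at 10 weeks and 3149 to 3925 at 40 weeks. Among smooth muscle and pericyte genes 2 of 10 were lower (4 at Novogene alone), with *Rgs5* at −0.42 (adjusted *P* = 0.469) and *Abcc9* at 0.04. Red blood cell genes had 2 of 5 lower (0 without 40-week replicates 1 and 5) and a median of −0.64 (*Hbb-bs* −0.64, *Hba-a1* −0.61).

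In the list of MHC class I and interferon response genes, 7 of 32 were lower and 1 higher at a *P* under 0.05, with a median of −0.28. In the Novogene libraries alone 2 were lower and 1 higher, and without 40-week replicates 2 and 4 the count was 4 and 1. *Gbp7*, an interferon-induced GTPase, was 164 to 357 and then 154, 78.9, 110, 111, and 119 (−0.93, adjusted *P* = 0.341), *Psmb8*, an immunoproteasome subunit, differed by −0.63 (adjusted *P* = 0.569), and *Ifi27* by 0.51 (adjusted *P* = 0.123). The most abundant members *H2-D1* and *H2-K1* differed by −0.04 and 0.16. No gene of the MHC class II list (7 tested; *Cd74* −0.36, *H2-Aa* −0.21) or of the macrophage and complement list (19 tested; *Lyz2* −0.21, *C3* 0.96) had a *P* under 0.05. The 5 macrophage markers summed to 266 to 1001 at 10 weeks and 255 to 742 at 40 weeks. T cell and neutrophil genes were mostly below the filter, with 1 and 3 tested.

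Lists of contraction, innervation, and turnover held few members with a *P* under 0.05. Here and in the next paragraph, genes in parentheses after a count are the most abundant members of the list, whatever their change. *Myh4*, the main fast myosin heavy chain, and *Atp2a1*, its calcium pump, differed by 0.02 and 0.03, and the slow fiber genes varied so much among libraries that *Myh7* differed by 1.11 with an SE of 2.31. Of neuromuscular junction and denervation genes 3 of 19 were lower, and 1 without 40-week replicates 1 and 5 (*Ank1* −0.17, *Prkar1a* −0.13), and of satellite cell and myogenic regulators 3 of 19, and none without those replicates (*Mef2c* 0.17). Schwann cell genes (13 tested; *Mbp* 0.87) and atrophy genes (19 tested; *Fbxo32* 0.43, *Asb2* 0.17) had no member with a *P* under 0.05, and the 6 Schwann cell markers summed to 5241 in 40-week replicate 3 against 1437 to 2060 in the other 40-week libraries. Of 24 cell cycle genes 2 were lower (*Pcna* 0.12, *Mcm2* 0.10). Of 19 p53 and senescence genes 2 were higher (*Ccng1* −0.05, *Phlda3* 0.03). In the imprinted growth network, 1 of 19 was higher and 1 lower, whereas in the Novogene libraries alone 7 were lower and none higher (median −0.28). *H19* was 3146 to 7045 and then 1911, 4087, 2234, 2183, and 4183 (−0.46, adjusted *P* = 0.841), and *Slc38a4* differed by −0.64 (adjusted *P* = 0.568).

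In energy metabolism, 1 of 36 glycolysis and glycogen genes was higher and 3 lower, and 4 and 6 at Novogene alone (*Aldoa* −0.14, *Pygm* 0.02), and no gene of fatty acid uptake and oxidation (28 tested; *Lpl* 0.13, *Fabp3* 0.19), heat shock (21 tested; *Hsp90ab1* 0.12, *Hspa8* −0.12), or glucocorticoid response (18 tested; *Pdk4* −0.10, *Glul* 0.26) had a *P* under 0.05. Nuclear OXPHOS subunits had 7 of 77 higher and 1 lower with a median of 0.05 (*Atp5b* −0.06, *Atp5a1* −0.01), with 17 higher and none lower without 40-week replicates 1 and 5, 2 and 2 without replicates 2 and 4, and 4 and 1 at Novogene alone. Of mitochondrially encoded proteins 1 of 12 was lower (*mt-Co1* −0.04, *mt-Cytb* 0.01), of proteasome subunits 1 of 37 (*Psmd2* 0.16, *Psmb7* 0.07), and of antioxidant and NRF2 targets 3 of 23 were higher, with 5 higher and 1 lower at Novogene alone (*Sod2* −0.12, *Gpx4* 0.15). Of 12 genes of polyamine metabolism 1 was lower (4 at Novogene alone), *Smox*, spermine oxidase. It was 7957 to 26739 (median 14172) and then 7699, 4449, 5191, 5045, and 3876, all below the 10-week range (−1.21, adjusted *P* = 0.442), while *Amd1* differed by −0.60 (adjusted *P* = 0.861). Part of the exons of *Atp2a1* (21.9%), *Bhlhe41* (19%), *Dbp* (18.0%), *Psmb8* (14.7%), *Psmb7* (11.8%), and *Gbp7* (11.3%) overlaps another annotated gene, so reads of that part may belong to it.

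**Figure D4:**
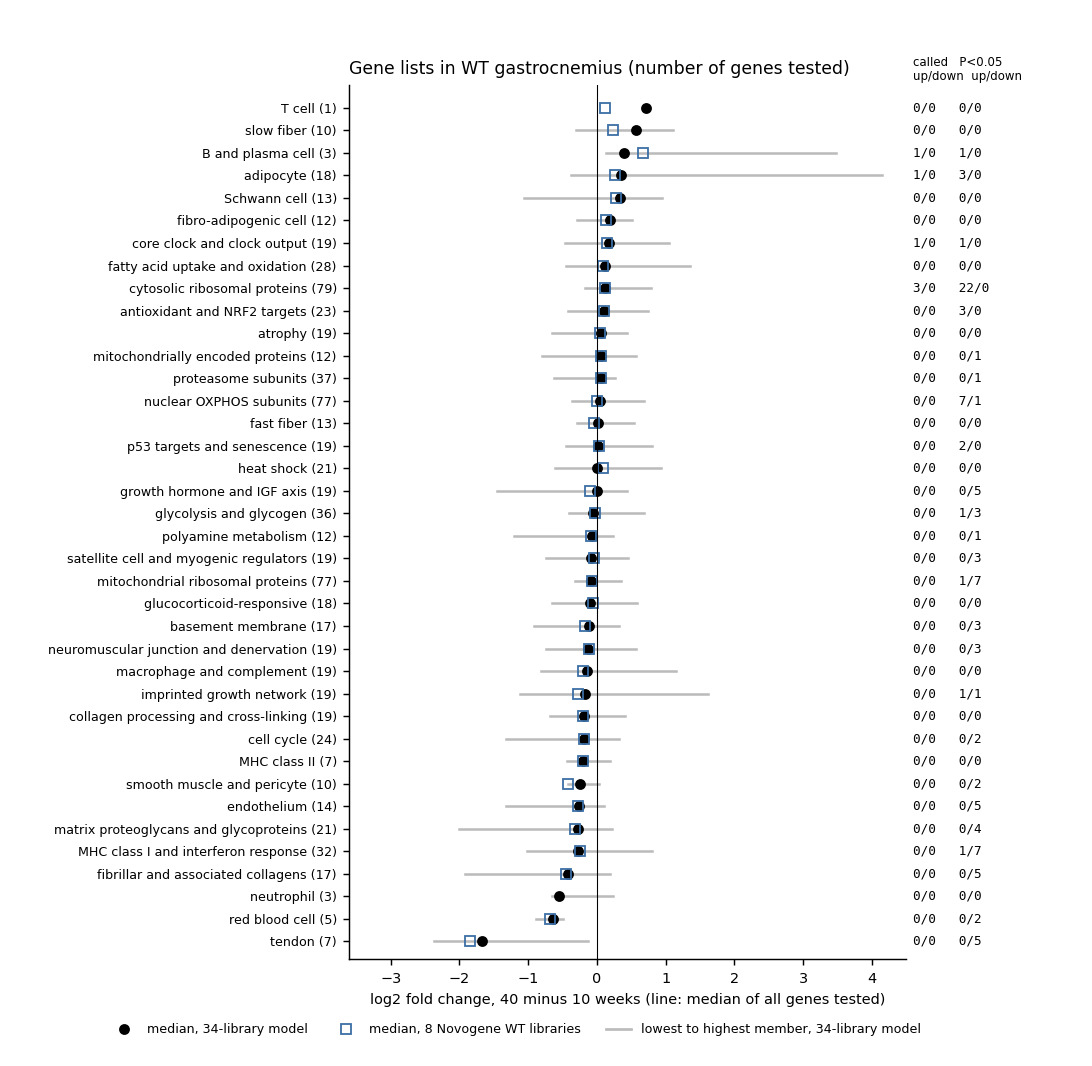
Median log2 fold change from 10 to 40 weeks (x axis) of the members of 38 gene lists, with the number of genes tested, in the model of 34 libraries (filled circles) and in the 8 Novogene WT libraries alone (open squares, none for neutrophil genes, which were not tested there). Gray lines span the lowest to the highest member, and the columns give members higher/lower that were called and that had a *P* under 0.05. The tendon list lies lowest at −1.68, and called members are found in 4 lists.

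The change with age was set beside that in the KO and KO+AAV mice of the same model, where 1346 (8.31%) and 1382 (8.53%) genes were called between 40 and 10 weeks. The difference between the WT and the KO change was called for 60 genes (0.37%), 23 with the more positive change in WT (0.142%) and 37 with the more negative (0.228%), and that between WT and KO+AAV for 104 genes (0.642%), 23 of them more positive (0.142%) and 81 more negative (0.5%) in WT. Both contrasts share the WT libraries. Fitted in the 24 Novogene libraries alone, they gave 0 and 3 genes, with 10-week groups of 3 libraries. The 3 were *Dupd1*, *Cx3cl1*, and *Sln*. Of the genes called in WT, *Lep* differed most. It rose by 4.14 in WT and changed by −2.61 in KO and −1.54 in KO+AAV muscle, from 32.2 ± 26.9 (SD, *n* = 6) to 2.95 ± 3.64 (*n* = 5) and from 69.1 ± 71.3 (*n* = 7) to 10.3 ± 7.48 (*n* = 5) normalized counts. The changes of *Mib1*, *Ighg2c*, *Gm830* (−0.56 in KO), and *Ttc23* (−0.21 in KO) differed between WT and KO (adjusted *P* = 0.0188, 0.0286, 0.0206, and 0.0283), and those of *Fmc1* (−0.25) and *Rps21* (−0.16) between WT and KO+AAV (0.0103 and 0.0186). In several other genes with the smallest *P* values, KO or KO+AAV muscle changed and no change was called in WT muscle. *Mylk4*, a myosin light chain kinase, differed by 0.33 ± 0.44 in WT and −3.30 ± 0.44 in KO muscle. *Cx3cl1*, the chemokine fractalkine, was 41.1 ± 9.66 (*n* = 6) and 47.0 ± 19 (*n* = 5) in WT, and rose by 1.90 in KO and 2.72 in KO+AAV muscle. *Dupd1*, a dual-specificity phosphatase, was 469 to 1403 at 10 weeks and 440, 328, 458, 374, and 367 at 40 weeks in WT (−0.76 ± 0.23, adjusted *P* = 0.274) and rose by 1.75 ± 0.23 in KO+AAV muscle, a difference that was also called within Novogene (adjusted *P* = 0.0119).

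**Figure D5:**
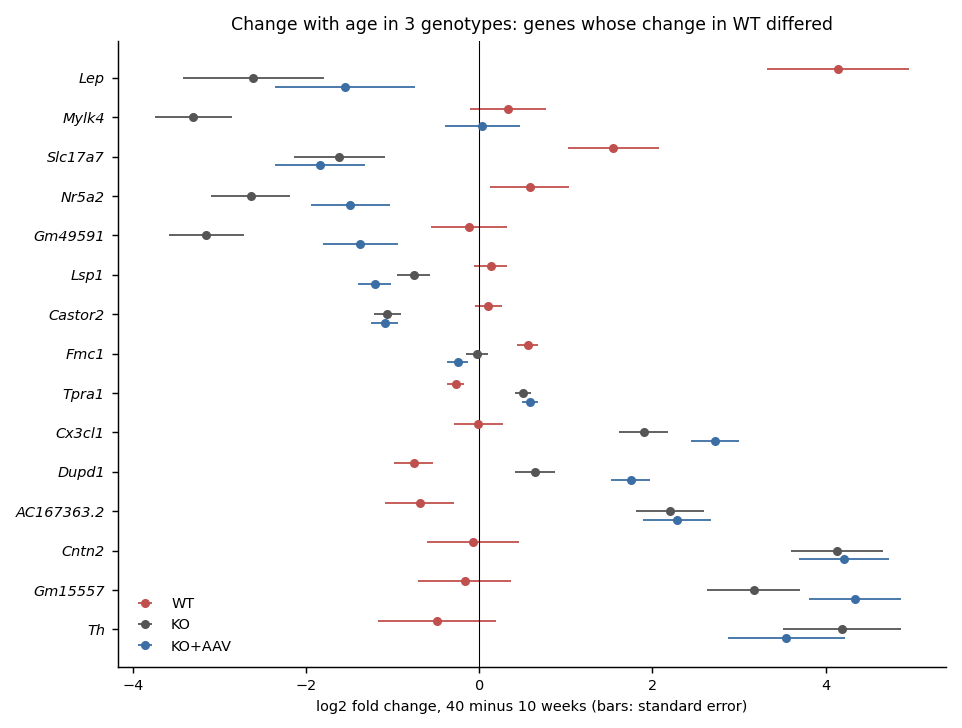
Log2 fold change from 10 to 40 weeks (x axis, bars ± SE of the model) in WT (red), KO (gray), and KO+AAV (blue) gastrocnemius for 15 genes with the smallest *P* values for a different change in WT. *Lep* lies at 4.14 in WT and below 0 in the others, whereas the WT changes of *Mylk4*, *Castor2*, *Cx3cl1*, and *Cntn2* lie within 1 SE of 0 and the others do not all do so.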

How the data were processed

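Poly(A) RNA-Seq of mouse gastrocnemius was analyzed from a gene table in which the authors had aligned reads to GRCm38/mm10 with HISAT2, counted them with HTSeq, and divided the counts by DESeq2 size factors. The deposited values are thus a normalized count signal, not raw counts. The annotation release and the strand setting of counting are not given in the sources used here. Every value was a whole multiple, within 0.05, of what 1 read is worth in its library (100% of values), so reads were recovered for tests of counts. Library totals were 9397642 to 38601790 reads, which limits values near the filter. Of 55401 genes listed 99.5% had a symbol, and 32 columns of other samples and a second table of another experiment were not used.

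Values were tested as log2(normalized count + 1) with limma 3.58.1 (R 4.3.3), with the 6 groups of age and genotype in gastrocnemius and the sequencing site (34 libraries), for genes with a mean above 5. Benjamini-Hochberg adjusted *P* values under 0.05 count as called, the standard error is limma's, and fold changes on this scale understate those of low genes. *P* values measure the spread between libraries, which may be technical where replicates share a source. The fit was also made in the 8 Novogene WT libraries alone, with edgeR 4.0.16 (quasi-likelihood) and DESeq2 1.42.0 on recovered reads, in WT libraries only, without site, with other filters and a pseudocount of 0.5, with recomputed size factors, with each WT library left out, with library quality weights, and with the replicate number as a block. Leaving out 40-week replicates 1 and 5 or 2 and 4 was chosen after seeing the data. The code was tested on simulated data.

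The text names called genes of mean above 50 with the same direction and *P* under 0.05 at Novogene (at most 15 a direction), up to 5 called members of each list or the 2 most abundant where none was called, the clock genes, 5 genes a direction of each interaction, and markers in libraries that stood apart. The remaining called genes, those called at Novogene alone, and genes said to be singled out were added after their values were seen, as were members of lists named beside them. The members and lists were chosen with earlier results of these data known, and several lists overlap. Gene positions (GRCm38) were read from GENCODE vM21. Some named members of the lists are not reported here. Promoter sequences are from RefSeq (GRCm38.p6), which matched 17 of the 24 called genes.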

Additional observations from a re-analysis of the deposited data

Results flagged for a closer look

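In groups of 5 or 6 WT libraries, the highest or lowest library stood off from the rest in 9 of 111 groups over 56 named genes. For normally distributed values the rule used would flag about 1 in 20. It was applied to normalized counts without a log, and for *Gm15557* and *Cntn2* 1 read makes the gap, so that rate need not hold here. At 10 weeks, replicate 6 was highest for *Actc1* (12754 normalized counts, the next 5385) and for its neighbor *C130080G10Rik* (37.8, the next 14.8), replicate 4 was lowest for *Mib1* (957, the next 1663), and replicate 5 was the only library with a read of *Gm15557* (1.34). At 40 weeks, replicate 5 was lowest for *Arntl* (480, the next 571), highest for *Rorb* (7.82, the next 1.48), and the only one with a read of *Cntn2* (1.56), while replicate 2 was highest for *Nfil3* (1050.1, the next 561) and the only one with *Gm15557* (1.25).

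The change with age differed between WT and KO muscle in 60 genes and between WT and KO+AAV muscle in 104, by the interaction term of the model. On the log2 scale, the WT change minus the KO change was 6.75 for *Lep*, 3.63 for *Mylk4*, 1.16 for *Castor2*, 3.22 for *Nr5a2*, 3.03 for *Gm49591*, −0.77 for *Tpra1*, −4.21 for *Cntn2*, −2.90 for *AC167363.2*, −4.68 for *Th*, and −1.91 for *Cx3cl1*. The WT change minus the KO+AAV change was 1.19 for *Castor2*, 1.34 for *Lsp1*, 5.69 for *Lep*, 0.81 for *Fmc1*, 3.39 for *Slc17a7*, −2.51 for *Dupd1*, −2.73 for *Cx3cl1*, −0.86 for *Tpra1*, −4.50 for *Gm15557*, and −4.29 for *Cntn2*. Both sets use the same WT libraries. *Th*, *Cntn2*, and *Gm15557* are at or near 0 in WT, so these log2 differences depend on the pseudocount. Within the Novogene libraries *Dupd1* (adjusted *P* = 0.0119) and *Cx3cl1* (0.0347) of the KO+AAV comparison were also called, and none of the named genes of the KO comparison was.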

How the results depend on the processing

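Of 24 called genes (18 higher, 6 lower), DESeq2 gave 63 (45 and 18), library quality weights 171 (90 and 81), the Novogene libraries of all 6 groups 4 (3 and 1), omission of 40-week replicates 2 and 4 9 (4 higher), and the replicate block 1 (1 and 0), *H2-Q6*, which is not among the 24 and whose ages overlap. Without the site term 10 were higher, and 14 were lower in the Novogene WT libraries and 12 in WT libraries only. Leaving out each WT library gave 7 to 29 (4 to 23 higher, 2 to 6 lower). The 368 genes with *P* under 0.01 became 187 in the Novogene libraries of 6 groups, 225 without replicates 2 and 4, 830 with weights, 653 without a filter, and 224 with the block (267 to 402 with 1 library left out). The 60 genes that differed between WT and KO became 206 by DESeq2, 39 by edgeR, 118 with weights, 0 at Novogene, 27 without replicates 1 and 5, 16 without 2 and 4, 36 at a mean above 50, 28 without a filter, and 29 without site (33 to 48). The 104 that differed between WT and KO+AAV became 233 by DESeq2, 466 with weights, 3 at Novogene, 61 without 1 and 5, 33 without 2 and 4, and 58 without site (67 to 112). Of listed genes, 6 were called, and 14 by DESeq2, 28 with weights, 1 in the Novogene libraries of 6 groups, 11 without 1 and 5, 1 without 2 and 4, 3 without site, and 1 with the block (1 to 12). *Arntl*, 0.24, was 0.12 to 0.39 with 1 library left out and −0.035 with the block. The replicate numbers do not pair the libraries: correlations of same-numbered deviations were −0.153, 0.038, −0.193, and 0.106 for replicates 2 to 5, and only replicate 5 matched its own number best. Directions that turned were all of uncalled clock genes: *Ciart* (−0.032 by DESeq2, −0.030 with weights, −0.024 by edgeR, and −0.068 to 0.23 with 1 library left out), *Cry1* (−0.0017 without 1 and 5), *Dbp* (−0.15 in both WT-only fits and at Novogene), *Nfil3* (−0.050 without 2 and 4, −0.077 to 0.33 with 1 library left out), *Nr1d1* (0.30 without site), *Per1* (−0.19 without 2 and 4, −0.057 to 0.68 with 1 library left out), and, with the block, *Nr1d2* (−0.042) and *Rora* (−0.39). Counts of calls under the other settings stayed within 1.5 times, but similar counts need not hold the same genes. With WT libraries only, 28 genes were called, and only 9 of the 24 were among them, whereas edgeR kept 20 and DESeq2 23. The cause of the changes was not tested.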
